A study of Rattus norvegicus with 9 samples.

Results

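The transcripts of 10 antioxidant enzymes were followed in arteries of adult rat offspring: Sod1, Sod2 and Sod3, the superoxide dismutases, Cat, catalase, Gpx1, Gpx3 and Gpx4, glutathione peroxidases, Txnrd1, thioredoxin reductase 1, Hmox1, heme oxygenase 1, and Nqo1, a quinone reductase. They were taken by gene symbol. All 10 stood on 1 line each among the 30452 features counted, and all 10 passed the filter on low counts in both comparisons. The study measured poly(A) RNA of mesenteric and pulmonary arteries dissected from offspring aged 3 to 5 months. Dams were kept on a standard diet, and in pregnancy they drank either water with 20% sucrose (high sucrose, HS) or plain water (control, CON). The groups used here were mesenteric artery of high-sucrose offspring, numbered 1 to 3, pulmonary artery of controls, numbered 1, 2 and 4, and mesenteric artery of controls, numbered 1 to 3, with 3 libraries each. The sample labels C and H were read as CON and HS. No genotype, strain or sex is named in the labels, and they do not tie the replicates to different animals. Each p-value is therefore set against a sample-to-sample spread that may be technical.

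Superoxide, made by the respiratory chain and by NADPH oxidases, reacts with nitric oxide and so removes a dilator of arteries. Superoxide dismutases turn it into hydrogen peroxide in separate places: Sod1 in the cytosol, Sod2 in the mitochondrial matrix and Sod3, the extracellular enzyme that smooth muscle cells secrete, in the matrix of the artery wall. Catalase in peroxisomes, glutathione peroxidases and the peroxiredoxin and thioredoxin system then remove peroxides. Hmox1, Nqo1 and Txnrd1 are textbook targets of NRF2 (gene Nfe2l2), the transcription factor that binds antioxidant response elements once its partner KEAP1 (gene Keap1) no longer holds it.

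Levels are given as CPM, counts relative to the library total, with totals scaled by TMM factors over all 9 libraries. CPM is not divided by transcript length, so levels are compared between libraries and not between genes. Total counts per library ran from 10388231 to 15420546. Single members held from 69 to 7497 counts per library.

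The libraries differed in makeup, and this was looked at first. The smooth muscle list (10 genes, Acta2 and Myh11 among them, none at 0 in any library) summed to 18660 to 29210 CPM in the high-sucrose group. It summed to 22540, 24210 and 3739 CPM in pulmonary replicates 1, 2 and 4, and to 11710 to 45020 CPM in the mesenteric controls. Pulmonary replicate 4 was the lowest of the 9 libraries for 10 of 10 smooth muscle, 8 of 10 fibroblast and 10 of 11 adipocyte markers. It was the highest for 9 of 9 lymphocyte and 10 of 10 lung epithelium markers, with a lung epithelium sum of 868 CPM where replicates 1 and 2 had 31.3 and 82.4 CPM. All 10 of 10 cardiac muscle markers peaked in pulmonary replicate 2, at 22910 CPM summed, while replicates 1 and 4 had 1083 and 1952 CPM. Actc1 alone held 1022 CPM of the sum in replicate 1. The mean log2 CPM of the list was 1.31 in replicate 1, 10.36 in replicate 2 and 6.55 in replicate 4. In the high-sucrose comparison 10 of 10 fibroblast markers had log2 fold changes below 0 (median −0.42, sums of 5856 to 7986 CPM in the high-sucrose group, against 7482 to 13790 CPM in control). Of the adipocyte markers 8 of 10 tested were above 0 (median 0.59, sums of 1116 to 2652 CPM in the high-sucrose group, against 1024 to 1644 CPM in control). None of these markers passed, and their part in the enzymes' values was not tested. In bulk tissue, fewer cells of a type and less RNA per cell cannot be told apart. Pulmonary values of the 10 enzymes are given with and without replicate 4.

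**Figure D1:**
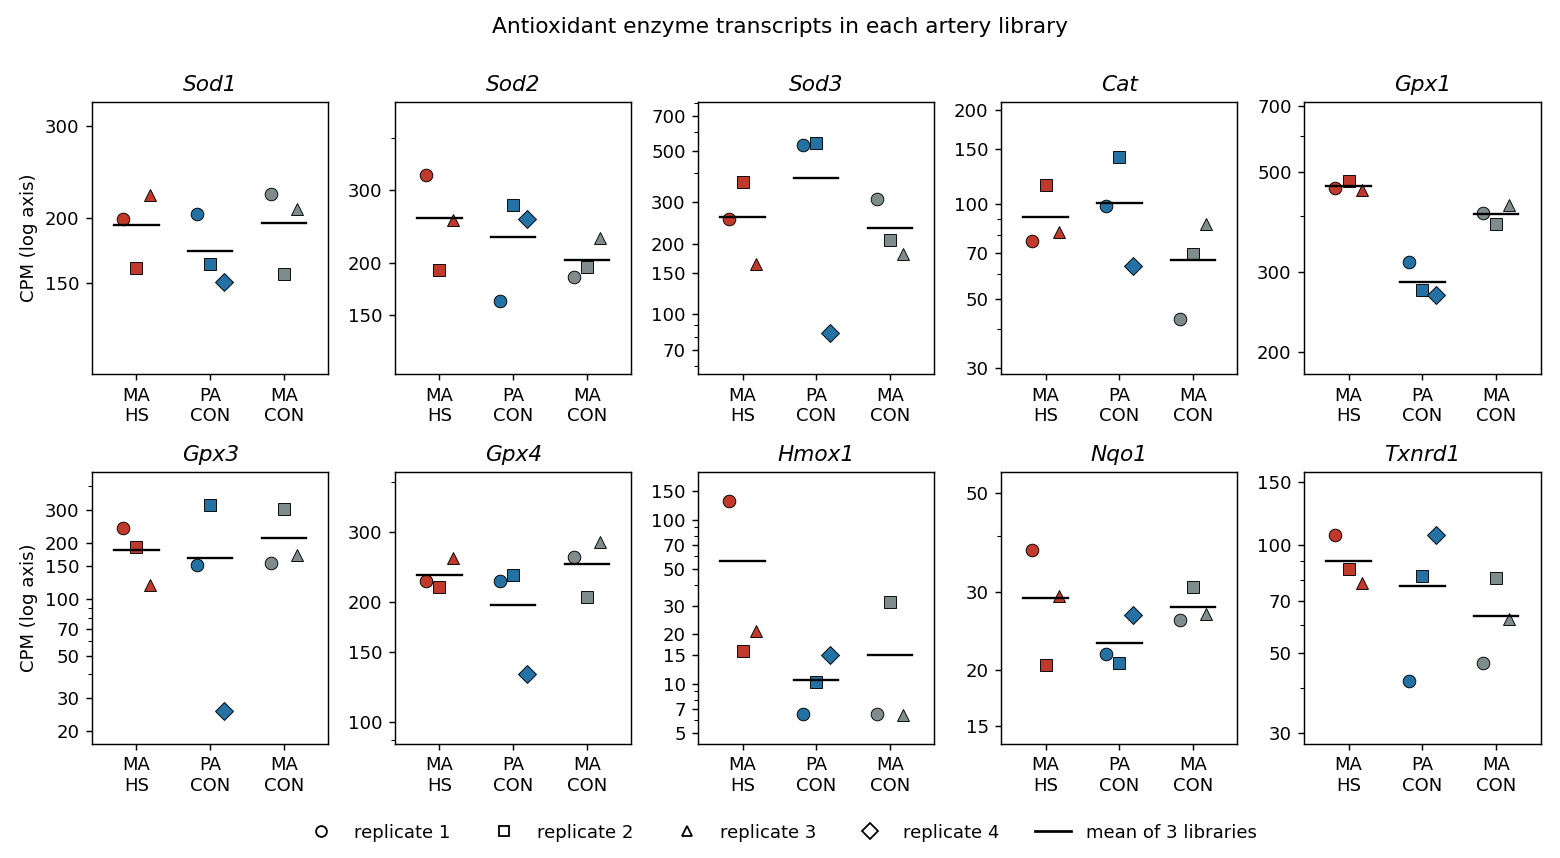
CPM of each antioxidant enzyme transcript (log axis, own range per panel) in the libraries of mesenteric high-sucrose (MA HS), pulmonary control (PA CON) and mesenteric control (MA CON) arteries; symbols give the replicate and the bar the mean of 3 libraries. Gpx1 keeps the groups apart (457 to 477, 268 to 316 and 383 to 422 CPM), while Hmox1 stands out in high-sucrose replicate 1 (131 CPM) and Sod3 and Gpx3 are low in pulmonary replicate 4 (83.1 and 25.7 CPM).

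The comparison of high-sucrose with control mesenteric arteries asked whether the diet of the dam in pregnancy left a difference in the adult offspring. None of the 10 enzymes passed the test across all features (adjusted p = 1.00 for each, by edgeR's quasi-likelihood test with Benjamini-Hochberg adjustment), where 0% of the 13995 features tested passed. With edgeR on all 6 libraries 0 of the 10 had an unadjusted p under 0.05, against 1.99% of all features. Neither DESeq2 (3 features called in all) nor limma-voom (0 called) called a member. The unadjusted p of Txnrd1 was 0.0199 with limma-voom. By edgeR without control replicate 2, the unadjusted p was 0.0124 for Txnrd1 and 0.0203 for Hmox1. The fold changes of 7 members were above 0 and those of 3 below 0, with a median log2 fold change of 0.19, beside 50.3% above 0 and a median of 0.0024 over all features. The groups did not overlap for 1 member, Gpx1, which was higher in the high-sucrose group, where 2.66% of all features were higher without overlap, 3.33% lower and 5.99% either way.

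The comparison of pulmonary with mesenteric artery of control offspring shares its mesenteric libraries with the comparison above. Again 0 of the 10 enzymes passed (adjusted p = 0.626 to 0.902), where 0.0140% of 14315 features passed, and with edgeR 0 of the 10 had an unadjusted p under 0.05, against 8.53% of all features. DESeq2 called 462 features and limma-voom 33, none of them a member. Among the alternatives, unadjusted p-values under 0.05 came from DESeq2 for Gpx1 (0.0145) and from limma-voom for Sod3 (0.0332) and Gpx1 (0.0465). They also came from edgeR without pulmonary replicate 4 for Sod3 (0.00634) and Cat (0.0436). Others included edgeR with replicate number as a block for Cat (0.0126) and Sod3 (0.0481), and with all 9 libraries for Gpx1 (0.049). In pulmonary artery 4 members had fold changes above 0 and 6 below 0, with a median log2 fold change of −0.22, beside 54.5% above 0 and a median of 0.06 over all features. The groups did not overlap for 1 member, again Gpx1, which was lower in pulmonary artery, where 7.59% of all features were lower without overlap, 6.41% higher and 14.0% either way.

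**Figure D2:**
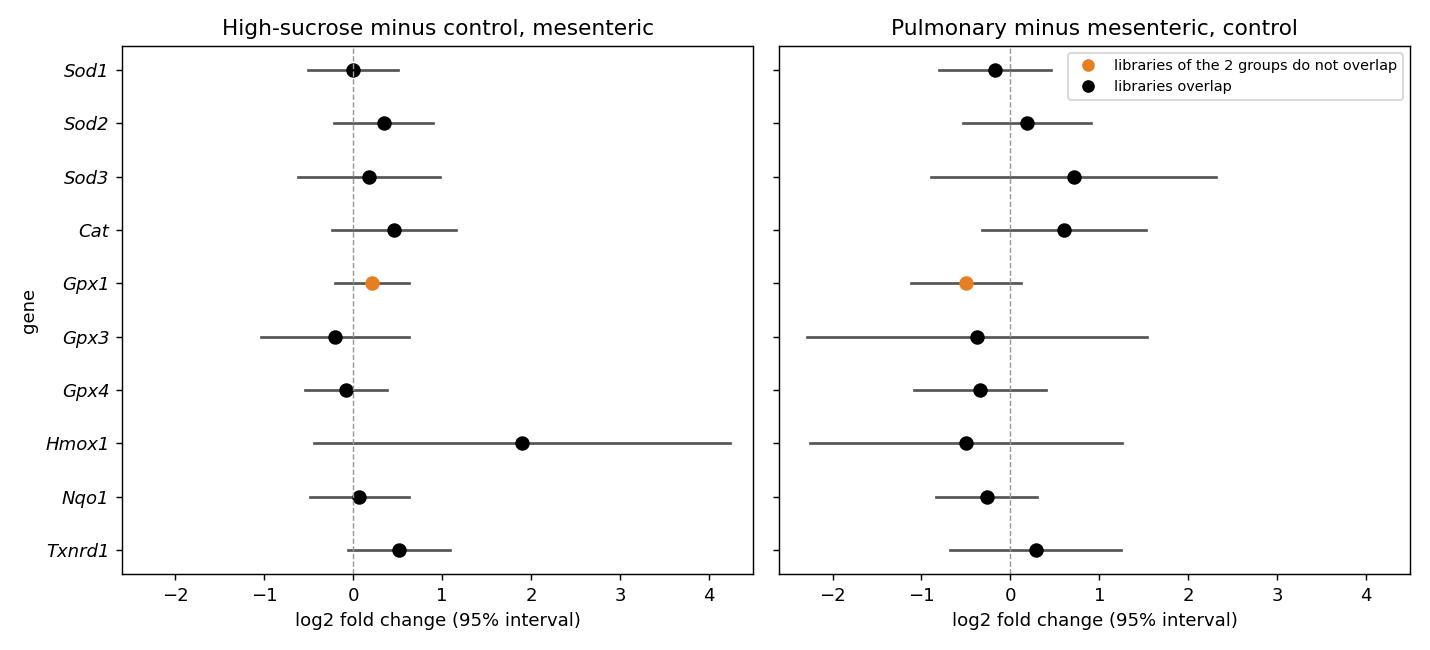
Log2 fold change of each enzyme (points) with its 95% interval (lines) for high-sucrose minus control mesenteric artery (left) and pulmonary minus mesenteric artery of controls (right), from edgeR fits over all features. Every interval spans 0, Hmox1 has the widest one on the left (−0.44 to 4.23), Gpx3 on the right (−2.29 to 1.53), and Gpx1 is the member without overlap in both panels.

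Gpx1 encodes the glutathione peroxidase of cytosol and mitochondria, a selenoprotein that reduces hydrogen peroxide. It had 461, 477 and 457 CPM in the high-sucrose arteries, against 406, 383 and 422 CPM in the mesenteric controls. All 3 high-sucrose libraries thus lay above all 3 controls, and the replicates lay close together, with a mean of 465 ± 10.2 CPM in the high-sucrose group and 404 ± 19.6 CPM in control (SD, n = 3 each). The log2 fold change was 0.21 ± 0.18 (SE), a fold of 1.16 with a 95% interval of 0.868 to 1.55. This SE comes from the edgeR fit, which shares information on spread across features, and does not measure the spread of the Gpx1 replicates alone. In pulmonary artery Gpx1 had 316, 274 and 268 CPM in replicates 1, 2 and 4, a mean of 286 ± 26.0 CPM, and each of these libraries lay below every mesenteric control. Against the mesenteric controls the log2 fold change was −0.50 ± 0.26 (SE, adjusted p = 0.626), and it was −0.45 (adjusted p = 0.540) without replicate 4.

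Gpx3, the secreted plasma form, had 239.5, 189.8 and 120.0 CPM in the high-sucrose arteries, against 156, 304 and 173 CPM in the mesenteric controls. The groups overlapped, and control replicate 2 was the highest of these 6 libraries. The estimated log2 difference was −0.21 ± 0.35 (SE), with an interval of −1.04 to 0.63, and it was 0.17 without that control. In pulmonary artery Gpx3 had 153, 318 and 25.7 CPM in replicates 1, 2 and 4, so that the group held both the highest and the lowest of the 9 libraries, 12.4-fold apart. Its log2 fold change against the mesenteric controls was −0.38 ± 0.80 (SE, adjusted p = 0.902), and 0.15 (adjusted p = 0.930) without replicate 4. The fibroblast list (10 markers found, none at 0) summed to 1565 CPM in pulmonary replicate 4, while replicates 1 and 2 had 7792 and 6641 CPM. In the mesenteric controls it summed to 7482 to 13790 CPM, where replicate 2 was again the highest. Within the high-sucrose group the order differed, at 7912, 5856 and 7986 CPM, so the lowest Gpx3 went with the highest sum. Pulmonary replicate 2 likewise had more Gpx3 than replicate 1 at a lower sum. Smooth muscle and adipocyte sums were also lowest in pulmonary replicate 4. The part of these cell types in the Gpx3 values was not tested.

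Gpx4, which reduces lipid hydroperoxides within membranes, had 227, 218 and 258 CPM in the high-sucrose arteries, against 259.5, 207 and 283 CPM in the mesenteric controls. The high-sucrose range lay inside that of the controls, with a log2 fold change of −0.08 ± 0.20 (SE) and an interval of −0.54 to 0.38. The pulmonary libraries had 226, 234 and 132 CPM in replicates 1, 2 and 4, of which only replicate 4 lay below the mesenteric range. Against the mesenteric controls this was −0.34 ± 0.31 on the log2 scale (SE, adjusted p = 0.765), and −0.12 (adjusted p = 0.896) without replicate 4.

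Of the summed counts of the 3 glutathione peroxidases, Gpx1 took 49.7%, 53.9% and 54.8% in high-sucrose replicates 1, 2 and 3, and 49.4%, 42.9% and 48.1% in mesenteric control replicates 1, 2 and 3. Every high-sucrose library therefore held a larger share than every control, by a narrow margin at its closest. In pulmonary artery Gpx1 took 45.4%, 33.2% and 62.9% in replicates 1, 2 and 4, and Gpx3 took 22.0%, 38.5% and 6.04%. Exact (Clopper-Pearson) 95% intervals of these shares reached at most 1.17 percentage points to either side, covering counting error only, so the closest pair of Gpx1 shares, 49.7% and 49.4%, could not be told apart at this depth.

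**Figure D3:**
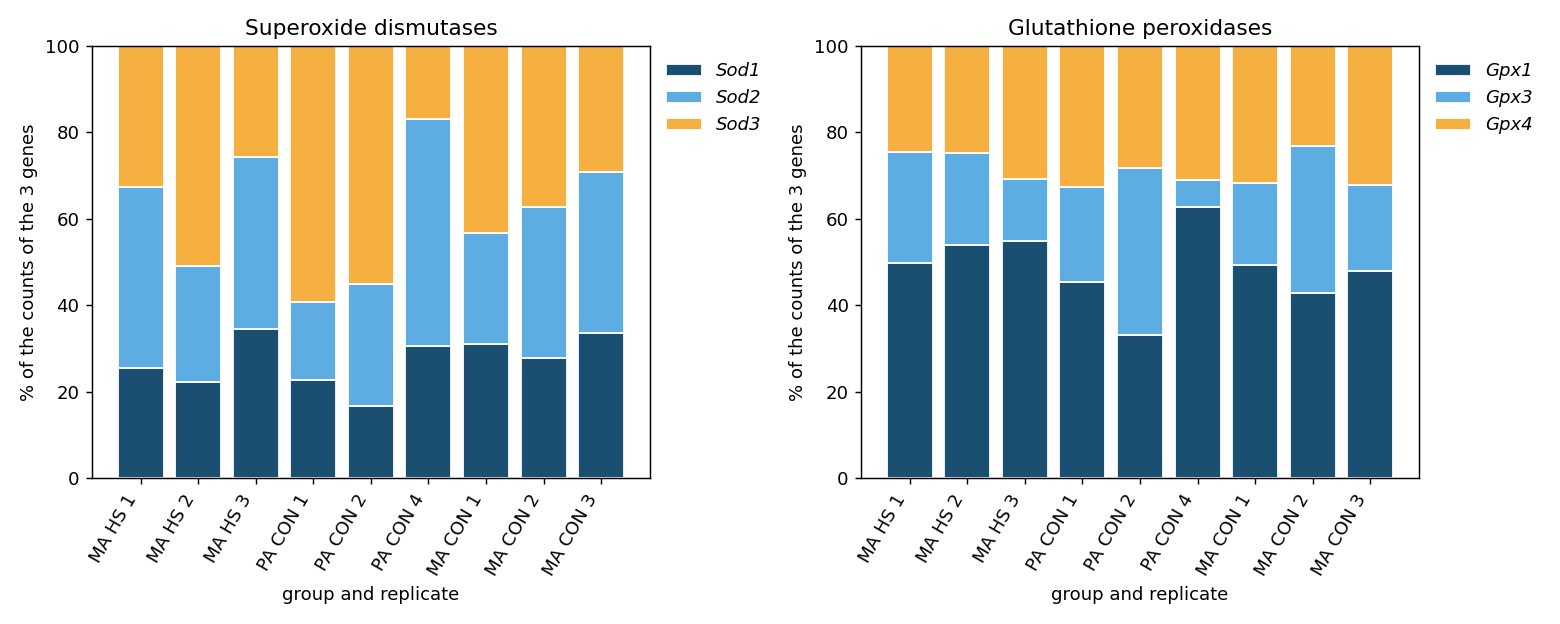
Share of the counts of 3 superoxide dismutase transcripts (left) and 3 glutathione peroxidase transcripts (right) in each library, by group and replicate; counts are not divided by length, so shares are to be compared between libraries. Sod3 makes up 59.2% and 55.0% in pulmonary replicates 1 and 2 and 17.0% in replicate 4, and Gpx3 runs from 6.04% to 38.5% within the same group.

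Among the superoxide dismutases, Sod3 spread most. In the high-sucrose arteries it had 254, 366 and 163 CPM, against 310.2, 208 and 181 CPM in the mesenteric controls, and the control range lay within that of the high-sucrose group. The log2 fold change was 0.18 ± 0.34 (SE), a fold of 1.13 with an interval of 0.649 to 1.97, and it was −0.14 without high-sucrose replicate 2. Pulmonary replicates 1 and 2 had 530.1 and 537 CPM, above each of the 6 mesenteric libraries, while pulmonary replicate 4 had 83.1 CPM, below each of them. With all 3 pulmonary libraries the mean was 383 ± 260.1 CPM, against 233 ± 68.4 CPM in the mesenteric controls (SD, n = 3 each), and the log2 fold change was 0.71 ± 0.67 (SE, adjusted p = 0.772). Without pulmonary replicate 4 it was 1.20 (adjusted p = 0.235), and with replicate 1 as the only pulmonary library it was 1.17 (adjusted p = 0.770). The lowest smooth muscle sum, that of pulmonary replicate 4, thus went with the lowest Sod3. Pulmonary replicates 1 and 2 had smooth muscle sums within the mesenteric range, at higher Sod3. The part of smooth muscle content in the Sod3 values was not tested.

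Sod2, the mitochondrial manganese enzyme, which inflammatory signals are known to induce, had 326, 193 and 253 CPM in the high-sucrose arteries, against 185, 196 and 230.3 CPM in the mesenteric controls. High-sucrose replicate 1 was the highest of all 9 libraries, while replicate 2 lay within the controls. In log2 terms the fold change was 0.34 ± 0.24 (SE), with an interval of −0.21 to 0.90, and it was 0.15 without high-sucrose replicate 1. In pulmonary artery Sod2 had 162, 276 and 256 CPM in replicates 1, 2 and 4, the lowest of the 9 libraries and a pair above every mesenteric control. The fitted log2 fold change was 0.19 ± 0.30 (SE, adjusted p = 0.868), 0.10 (adjusted p = 0.931) without replicate 4 and −0.35 (adjusted p = 0.999) with replicate 1 as the only pulmonary library. The part of the cardiac, lymphocyte and lung epithelium transcripts of the pulmonary libraries in these values was not tested.

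Sod1, the cytosolic copper and zinc enzyme, varied least of the 10, by 1.48-fold over all libraries. It had 199, 160.1 and 221 CPM in the high-sucrose arteries, against 222, 156 and 208 CPM in the mesenteric controls, nearly the same range. The log2 fold change was −0.0043 ± 0.22 (SE), a fold of 0.997 with an interval of 0.701 to 1.42. The pulmonary libraries had 204, 163 and 150.1 CPM in replicates 1, 2 and 4, and the log2 fold change against the mesenteric controls was −0.18 ± 0.26 (SE, adjusted p = 0.856), or −0.09 (adjusted p = 0.930) without replicate 4. As a share of the counts of the 3 superoxide dismutases, Sod3 took 32.7%, 50.9% and 25.6% in high-sucrose replicates 1, 2 and 3, against 43.2%, 37.2% and 29.2% in mesenteric control replicates 1, 2 and 3. In pulmonary replicates 1, 2 and 4 it took 59.2%, 55.0% and 17.0%, with counting intervals within 1.18 percentage points. Pulmonary replicates 1 and 2 held the largest Sod3 shares of the 9 libraries, and in pulmonary replicate 4 Sod2 took 52.3%.

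Cat, the peroxisomal enzyme that splits hydrogen peroxide without a partner molecule, had 76.2, 115 and 81.4 CPM in the high-sucrose arteries, against 43.1, 69.2 and 86.7 CPM in the mesenteric controls. The groups overlapped through control replicate 3. As a log2 fold change this was 0.46 ± 0.30 (SE), a fold of 1.38 with an interval of 0.850 to 2.24, and it was 0.22 without control replicate 1. In pulmonary artery Cat had 98.7, 141.5 and 63.5 CPM in replicates 1, 2 and 4, so that replicates 1 and 2 lay above every mesenteric control and replicate 4 within them. The estimated log2 difference was 0.60 ± 0.38 (SE, adjusted p = 0.681), 0.85 (adjusted p = 0.421) without replicate 4 and 0.55 (adjusted p = 0.999) with replicate 1 as the only pulmonary library. Fat cells and heart muscle contain catalase. The adipocyte list (11 markers found) summed to 1116, 2652 and 2095 CPM in the high-sucrose libraries, to 1349, 2120 and 311 CPM in numbers 1, 2 and 4 of the pulmonary group, and to 1024, 1644 and 1275 CPM in the mesenteric controls. The highest library of each group for Cat was the highest of that group for the adipocyte sum in the high-sucrose and pulmonary groups but not in the mesenteric controls. Ucp1 was the only marker of that list at 0, in 3 mesenteric libraries. The cardiac muscle list summed to 1083, 22910 and 1952 CPM in pulmonary replicates 1, 2 and 4, where Actc1 alone held 1022 CPM of the sum in replicate 1. Replicate 2 was thus highest for both, while replicate 4 had a larger cardiac sum than replicate 1 at lower Cat. The part of fat or heart muscle content was not tested.

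Hmox1, the enzyme that breaks down heme and is induced by many stresses, had the widest range of the 10, 20.4-fold over the 9 libraries. It had 131, 15.8 and 21.1 CPM in the high-sucrose arteries, against 6.53, 31.7 and 6.45 CPM in the mesenteric controls. High-sucrose replicate 1 stood far above the other libraries, and the remaining high-sucrose libraries lay between the low controls and control replicate 2. The mean was 56.1 ± 65.2 CPM in the high-sucrose group and 14.9 ± 14.5 CPM in control (SD, n = 3 each), each SD about as large as its mean. The log2 fold change was 1.90 ± 0.99 (SE), with an interval of −0.44 to 4.23. It depended on single libraries: it was 0.32 without high-sucrose replicate 1 and 3.12 (adjusted p = 0.851) without control replicate 2. Macrophages also make Hmox1. The macrophage list (10 markers found, with Marco at 0 in 5 libraries) summed to 284 CPM in high-sucrose replicate 1, below 495 and 389 CPM in replicates 2 and 3 and between the lowest and highest mesenteric controls (214 to 494 CPM), and the part of macrophage content was not tested. In pulmonary artery Hmox1 had 6.54, 10.2 and 15.0 CPM, with a log2 fold change against the mesenteric controls of −0.50 ± 0.73 (SE, adjusted p = 0.853), −0.84 (adjusted p = 0.760) without pulmonary replicate 4 and 0.72 (adjusted p = 0.803) without control replicate 2.

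Txnrd1, the selenoprotein that returns cytosolic thioredoxin to its reduced form, had the smallest p of the 10 in the high-sucrose comparison. It had 107, 85.9 and 78.3 CPM in the high-sucrose arteries, against 46.8, 80.7 and 62.1 CPM in the mesenteric controls. The groups overlapped through high-sucrose replicate 3 and control replicate 2. The mean was 90.3 ± 14.6 CPM in the high-sucrose group and 63.2 ± 17.0 CPM in control (SD, n = 3 each), with a log2 fold change of 0.52 ± 0.24 (SE, unadjusted p = 0.0697 and adjusted p = 1.00 by edgeR), a fold of 1.43 with an interval of 0.963 to 2.13. Without high-sucrose replicate 1 it was 0.40, and without control replicate 1 it was 0.33. Pulmonary replicates 1, 2 and 4 had 41.9, 81.9 and 107 CPM, from the lowest of the 9 libraries to close to the highest. In log2 terms the fold change against the mesenteric controls was 0.28 ± 0.40 (SE, adjusted p = 0.850), and it was −0.03 (adjusted p = 0.986) without replicate 4.

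Nqo1, which reduces quinones by a transfer that avoids the semiquinone radical, had 37.2, 20.5 and 29.4 CPM in the high-sucrose arteries, against 25.9, 30.7 and 26.7 CPM in the mesenteric controls. The high-sucrose libraries lay on both sides of the controls, holding the highest and the lowest value of all 9 libraries. The fitted log2 fold change was 0.07 ± 0.24 (SE), with an interval of −0.49 to 0.63, and it was −0.13 without high-sucrose replicate 1. In pulmonary artery Nqo1 had 21.7, 20.8 and 26.5 CPM in replicates 1, 2 and 4, of which replicate 4 overlapped the controls. The log2 fold change was −0.27 ± 0.24 (SE, adjusted p = 0.760), and −0.39 (adjusted p = 0.556) without replicate 4. Of the 10 enzymes, 4 had their highest value in high-sucrose replicate 1, Sod2, Hmox1, Nqo1 and Txnrd1, while pulmonary replicate 4 was the lowest for 5, Sod1, Sod3, Gpx1, Gpx3 and Gpx4.

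Promoter windows are shown for Txnrd1 and Sod2, the members whose window held the motif of NRF2-bound elements, and for Gpx1, the member without overlap between groups. The windows come from RefSeq on build GRCr8, not the build of the counts (rn7), and run from 250 bases before to 50 bases after an annotated start, 300 bases in all. Of the 10 enzymes, 8 matched the table by symbol, with 11 windows (Sod3 and Hmox1 were not matched). The core of the antioxidant response element, spelled TGACNNNGC and searched on both strands, was found in 2 of the 11 windows, those of Sod2 and of 1 of 2 Txnrd1 starts, and in 12.1% of all 33469 windows. The GC box GGGCGG was found in 9 of the 11 windows and in 33.1% of all, without overlapping the other motif in a member's window. By enzyme it was found in 7 of the 8. Some Gpx4 windows overlap and share GC boxes, so the 11 windows are not independent. A match describes the letters and is not a site shown to be bound. Capitals mark the antioxidant response element core, on the reverse strand, in Txnrd1 (chr7:22755855-22756154, minus strand, first base 78 before the start) and Sod2 (chr1:50050119-50050418, minus strand, first base 35 before the start), and the GC box in Gpx1 (chr8:117905212-117905511, plus strand, first base 65 before the start).
Txnrd1: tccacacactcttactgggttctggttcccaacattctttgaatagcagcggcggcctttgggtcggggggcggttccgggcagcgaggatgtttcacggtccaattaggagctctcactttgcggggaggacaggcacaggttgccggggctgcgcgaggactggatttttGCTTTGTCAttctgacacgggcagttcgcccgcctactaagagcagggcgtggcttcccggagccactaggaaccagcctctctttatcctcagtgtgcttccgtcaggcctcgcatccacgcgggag
Sod2: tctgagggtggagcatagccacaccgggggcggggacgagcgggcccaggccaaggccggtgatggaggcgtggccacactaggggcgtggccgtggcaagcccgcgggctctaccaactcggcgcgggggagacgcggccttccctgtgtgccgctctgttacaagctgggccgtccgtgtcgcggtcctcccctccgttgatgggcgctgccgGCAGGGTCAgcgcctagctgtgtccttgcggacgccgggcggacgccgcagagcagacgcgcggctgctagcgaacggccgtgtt
Gpx1: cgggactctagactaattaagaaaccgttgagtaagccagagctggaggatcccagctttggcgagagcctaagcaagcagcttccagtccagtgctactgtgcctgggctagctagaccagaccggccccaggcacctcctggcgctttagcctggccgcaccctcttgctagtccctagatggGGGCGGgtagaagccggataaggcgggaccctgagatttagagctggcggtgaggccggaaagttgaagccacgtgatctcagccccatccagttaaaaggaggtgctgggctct
The Nqo1 window and the other Txnrd1 window held no match to the core, which says only that these letters are not in those windows.

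Genes that work beside these enzymes were taken from 11 lists, the members left out. In the high-sucrose comparison 0 of 136 tested list genes passed in either direction, with 5 at an unadjusted p under 0.05 (1.99% of all features), and in the pulmonary comparison 0 of 135, with 12 (8.53% of all features). Up to 3 genes with the smallest p of each list are named below with log2 fold changes, and none of them passed. They were picked by p, so how many of them lack overlap cannot be compared with the share over all features. Their pulmonary fold changes are given with all 3 pulmonary libraries only, replicate 4 included. The median log2 fold change over all features was 0.0024 for high sucrose and 0.06 for pulmonary artery.

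Gclc, the catalytic subunit of the rate-limiting enzyme of glutathione synthesis, was higher without overlap in the high-sucrose arteries. It had 123, 113.5 and 115 CPM there, against 59.8, 82.6 and 92.8 CPM in the mesenteric controls, with a log2 fold change of 0.59 ± 0.20 (SE, unadjusted p = 0.0228 and adjusted p = 1.00). In its list of glutathione synthesis and recycling, 10 of 11 tested genes had fold changes above 0 (median 0.16), with Chac1 at 0.96 and Oplah at 0.39. Chac1 had only 3, 7 and 10 counts in mesenteric control replicates 1, 2 and 3. Osgin1, an oxidative stress gene and NRF2 target, was also higher without overlap, at 6.40, 4.37 and 3.53 CPM in the high-sucrose arteries, against 2.09, 2.75 and 1.59 CPM in control (1.15 ± 0.40 SE, unadjusted p = 0.0215). The further NRF2 targets as a list were divided, 8 above and 7 below 0 (median 0.03), with Gclc and Pgd (0.16) the next by p. Osgin1 and Gclc were the 2 of its 15 tested genes higher without overlap, where 2.66% of all features were. Among NRF2 regulators 8 of 12 were above 0 (median 0.10), with Park7 at −0.31, Nfe2l2 at 0.30 and Maff at 0.36. Nfe2l2 itself had 157, 153 and 181 CPM in the high-sucrose arteries, against 108, 160.5 and 132 CPM in the mesenteric controls, overlapping through control replicate 2.

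The copper chaperone that loads Sod1, Ccs, had 15.6, 13.0 and 13.3 CPM in the high-sucrose arteries, against 26.6, 13.4 and 29.0 CPM in the mesenteric controls. Control replicate 2 overlapped the high-sucrose group, and the log2 fold change was −0.71 ± 0.29 (SE, unadjusted p = 0.0457). Slc39a14, a metal importer that carries manganese, was at 0.56 (unadjusted p = 0.0377) and Atox1, another copper chaperone, at −0.40, in a list of copper and manganese supply with 5 of 10 above 0 (median 0.05). Peroxiredoxin and thioredoxin genes had 9 of 17 above 0 (median 0.0047), with Glrx5 at −0.43, Sesn2 at 0.56 and Txnrd3 at −0.49. Glrx5 was lower without overlap, where 3.33% of all features were. Glutathione transferases had 4 of 14 above 0 (median −0.27), with Mgst3 at −0.71 (unadjusted p = 0.0386), Gstm2 at −1.16 and Gstm4 at −0.33. Gstm4 was lower without overlap as well. Heme and iron handling had 9 of 15 above 0 (median 0.15), with Blvra, a biliverdin reductase, at −0.41, Tfrc, the transferrin receptor, at 0.45 and Cd163, the macrophage receptor for haemoglobin, at 0.78.

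Other glutathione peroxidases and selenoproteins had 6 of 15 above 0 in the high-sucrose arteries (median −0.01), with Selenoh at −0.45, Gpx7 at −0.25 and Dio2 at 1.31. The list of selenium supply and selenocysteine insertion, on which Gpx1, Gpx3, Gpx4 and Txnrd1 depend, had 3 of 8 above 0 (median −0.10). Lrp8, a receptor that takes up selenoprotein P, was at 1.38, Trnau1ap at −0.22 and Pstk at −0.30. Lrp8 was higher and Trnau1ap lower without overlap. Peroxisome genes had 9 of 15 above 0 (median 0.06), with Pex11a at 0.74, Ehhadh at 1.05 and Paox at 0.46. These 3, the smallest p of the list, were its members higher without overlap, where 2.66% of all features were. The list of ferroptosis and lipid peroxide defence had 6 of 11 above 0 (median 0.19), with Alox5 at 0.86, Alox12 at −0.93 and Tfrc as above. Alox5 was higher without overlap.

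In pulmonary artery the metallothioneins, copper and zinc binding proteins, had the smallest p of these lists. Mt2A had 34.8, 53.7 and 48.3 CPM in pulmonary replicates 1, 2 and 4, against 59.5, 527 and 403 CPM in the mesenteric controls, without overlap (log2 fold change −2.87 ± 0.77 SE, unadjusted p = 0.00852, adjusted p = 0.420). Mt1 was at −2.70 and Slc31a2 at −0.70, and the metal supply list had 6 of 10 above 0 (median 0.09). Txnrd2, the mitochondrial thioredoxin reductase, had 9.77, 16.3 and 16.6 CPM in pulmonary replicates 1, 2 and 4, against 24.6, 34.6 and 18.7 CPM in the mesenteric controls (−0.87 ± 0.36 SE, unadjusted p = 0.0473, adjusted p = 0.578). Sesn3 was at 1.10 and Prdx6 at 0.61 in the same list, which had 12 of 17 above 0 (median 0.17).

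Akr1b8 was at −2.58, Ephx1 at −0.89 and Fth1, the ferritin heavy chain, at −0.60 among further NRF2 targets, in a list with 9 of 15 above 0 (median 0.08). These 3 were lower without overlap in pulmonary artery and 1 other gene of the list was higher, where 7.59% of all features were lower and 6.41% higher. NRF2 regulators had 9 of 12 above 0 (median 0.09), with Bach2 at 1.67, Nfe2l2 at −0.50 and Maff at −0.95. Bach2 had 2.485, 3.01 and 14.65 CPM in pulmonary replicates 1, 2 and 4, against 1.68, 2.75 and 1.96 CPM in the mesenteric controls. Heme and iron handling had 9 of 15 above 0 (median 0.19), with Slc48a1, a heme transporter, at −0.72, Alas1, the entry enzyme of heme synthesis, at 1.27 and Tfrc at 1.36. In pulmonary replicates 1, 2 and 4 Alas1 had 19.9, 105.9 and 62.2 CPM, and Tfrc had 8.20, 27.3 and 46.3 CPM. For each of these genes replicate 1 lay below every mesenteric control, and replicates 2 and 4 above. Glutathione transferases had 9 of 14 above 0 (median 0.08), with Gsta4 at 1.15, Gstm2 at 2.50 and Gstm1 at 1.08. Gstm2 had 95.4 and 65.8 CPM in pulmonary replicates 1 and 2 and 5.55 CPM in replicate 4, against 18.4, 4.30 and 6.63 CPM in the mesenteric controls.

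The list of glutathione synthesis and recycling had 7 of 10 above 0 in pulmonary artery (median 0.12), with Pgd at 0.37, Ggt1 at 1.94 and Chac2 at −0.51. Ggt1 had 0.911, 1.65 and 25.5 CPM in pulmonary replicates 1, 2 and 4, against 3.30, 2.32 and 1.87 CPM in the mesenteric controls. Other selenoproteins had 7 of 15 above 0 (median −0.03), with Msrb1 at −0.68, Dio2 at 1.64 and Selenoo at 0.38. Selenium supply and selenocysteine insertion had 6 of 8 above 0 (median 0.10), with Lrp8 at 1.86, Sepsecs at −0.32 and Scly at 0.36. Lrp8 had 1.325, 2.51 and 13.1 CPM in pulmonary replicates 1, 2 and 4, against 0.54, 2.50 and 1.68 CPM in the mesenteric controls. Peroxisome genes had 11 of 15 above 0 (median 0.17), with Acaa1a at 0.40, Ehhadh at 0.89 and Paox at 0.96. Paox had 6.79, 8.595 and 29.05 CPM in pulmonary replicates 1, 2 and 4, against 7.20, 6.88 and 9.06 CPM in the mesenteric controls. The ferroptosis list had 7 of 11 above 0 (median 0.15), with Alox5 at 1.31, Tfrc as above and Gch1 at −1.11. Of the list genes named for pulmonary artery, Sesn3, Pgd, Gsta4, Selenoo, Scly, Acaa1a and Alox5 were higher without overlap, where 6.41% of all features were. Mt2A, Txnrd2, Slc31a2, Slc48a1, Akr1b8, Ephx1 and Fth1 were lower without overlap, where 7.59% were. Being picked by p, the named genes cannot be counted against these shares.

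For the 3 enzymes with the widest range, the genes with the most alike profile over the 9 libraries were sought among 11233 others. Likeness was the root mean square difference between log2 CPM profiles, each centred on its own mean. Nearest to Sod3 was Svil, supervillin, an actin-binding protein of muscle, at 0.10 log2 units, where the median gene was at 0.89, followed by Foxn3, a forkhead transcription factor, at 0.22. Svil had 420, 597 and 229 CPM in the high-sucrose arteries and 768, 743 and 117 CPM in the pulmonary arteries, against 456, 278 and 263 CPM in the mesenteric controls. Gpx3 lay nearest to Rassf8 (0.26) and Nacad (0.30), where the median gene was at 1.08, and all of them shared the low value in pulmonary replicate 4. Hmox1 had no close neighbour: Plaur, the urokinase receptor, was at 0.73 and Chst11 at 0.81, where the median gene was at 1.39. Both had high values in high-sucrose replicate 1 and control replicate 2, as Hmox1 did, but lay less far above their own mean in high-sucrose replicate 1.

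**Figure D4:**
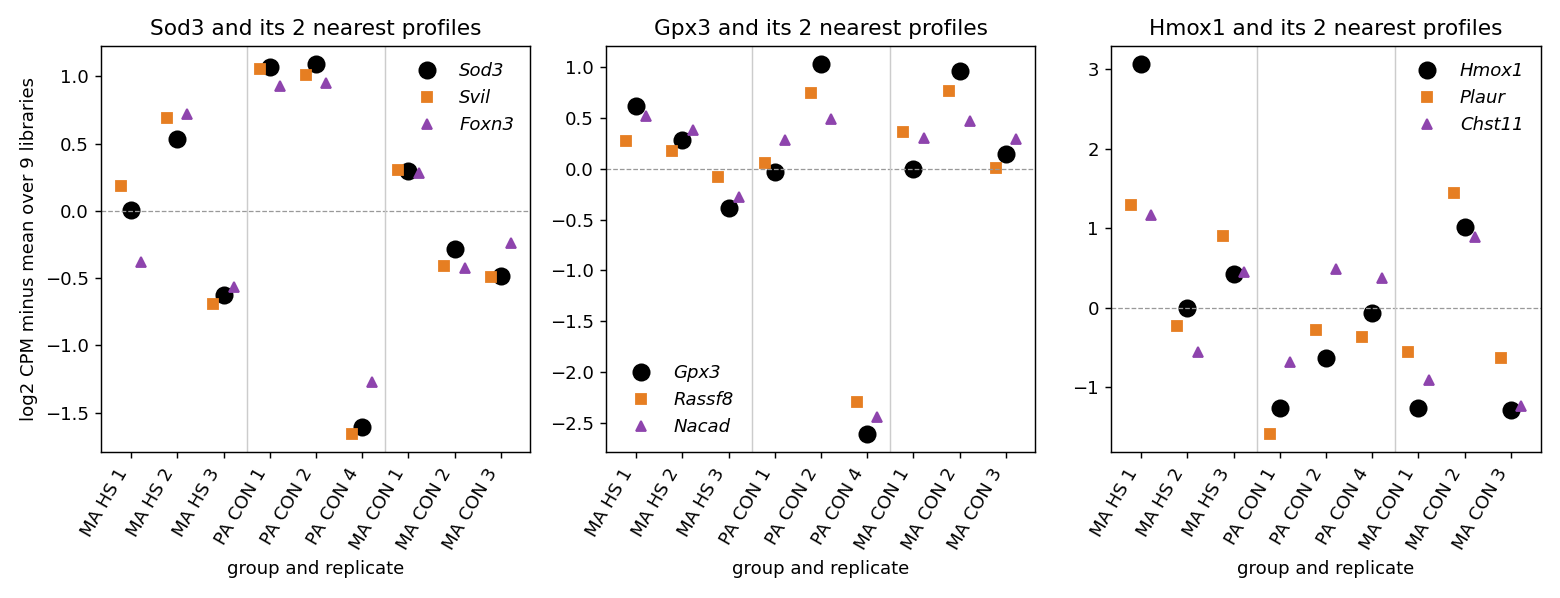
Log2 CPM minus its mean over the 9 libraries for Sod3, Gpx3 and Hmox1 (black) and the 2 genes with the most alike profile of each, by group and replicate. Svil lies close to Sod3 in every library (root mean square difference 0.10), whereas Plaur and Chst11 stay below Hmox1 in high-sucrose replicate 1.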

How the data were processed

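Poly(A) RNA of rat arteries was sequenced. Per the labels' protocols, it was enriched with oligo(dT) beads and copied with random primers, the second strand being marked by its buffer. For each library the authors deposited whole-number counts per gene (9 libraries), without normalization, and per the submitters' processing notes the build is rn7. Aligner, counter, annotation and strand were not given in the sources used. Consequently, reads shared with gene copies or antisense transcripts cannot be separated.

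Each feature was tested in edgeR 4.0.16 under R 4.3.3 by its quasi-likelihood method (TMM factors, filterByExpr, robust dispersion prior), fitted on the 6 libraries of a comparison, with Benjamini-Hochberg adjustment over all features and a threshold of 0.05. Intervals of fold changes are at 95% confidence. Each SE was derived from the edgeR fold change and its F statistic. It therefore rests on dispersions shared across features and not on a gene's own replicates alone. The fit was tested on simulated data. Alternatives used DESeq2 1.42.0, limma 3.58.1 (voom), other factors and filters, all 9 libraries, a replicate block and each library left out.

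The members and lists were chosen with earlier results of these data known. Lists held 260 genes, of which 241 stood on 1 line by symbol and were used. The text names all 10 enzymes, up to 3 genes of smallest p per pathway list, and the 2 most alike profiles for the 3 widest members. Replicates of every group differed beyond counting error, with a chi-square of 45.7 to 332 times its degrees of freedom. The result of the red cell list is not reported here.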

Additional observations from a re-analysis of the deposited data

How the results depend on the processing

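No enzyme passed the test under any of the 16 alternatives in the high-sucrose comparison or the 17 in the pulmonary one. The count of features passing was 0 with each library left out for high sucrose and 3 with DESeq2. In the pulmonary comparison it was 462 with DESeq2, 33 with limma-voom, 41 with all 9 libraries, 9 with the newer quasi-likelihood method (added after the data were seen) and 0 when pulmonary replicate 1 stood alone for its group (also added). It ran from 0 to 22 with 1 library left out, 22 without pulmonary replicate 4 and 0 without any other. For high sucrose the replicate block called 0. Deviations of same-numbered libraries from their group means had correlations of 0.21, −0.29 and 0.13 for numbers 1, 2 and 3, and not every library was closest to its own number. For numbers 1 and 2 of the pulmonary and mesenteric controls the correlations were 0.17 and −0.17. The labels do not say whether same-numbered libraries share an animal. With 3 libraries a group, these correlations cannot decide whether the numbers pair libraries. In the pulmonary comparison, where 2 numbers are shared, so that pulmonary replicate 4 and control replicate 3 dropped out, the replicate block called 0, and it turned Gpx3 to 0.019 and Txnrd1 to −0.068. Limma-voom turned Gpx3 to 0.036 for high sucrose. With pulmonary replicate 1 alone, Sod1 was at 0.039, Sod2 at −0.35 and Txnrd1 at −0.62. With 1 library left out, the log2 fold changes for high sucrose ran from −0.13 to 0.12 for Sod1, from −0.14 to 0.42 for Sod3, from −0.43 to 0.17 for Gpx3, from −0.19 to 0.015 for Gpx4 and from −0.13 to 0.27 for Nqo1. In the pulmonary comparison they ran from −1.26 to 0.15 for Gpx3, from −0.87 to 0.72 for Hmox1 and from −0.034 to 0.58 for Txnrd1. The cause of these turns was not tested. Where a group is left with 1 library, that library is assumed to vary like the others. Gpx1 and Cat kept their direction under every alternative run in both comparisons. Gpx1 was at 0.19 to 0.24 for high sucrose and −0.57 to −0.38 in pulmonary artery, and Cat at 0.22 to 0.70 and 0.28 to 1.115. Sod2, Hmox1 and Txnrd1 kept theirs for high sucrose only, and Sod3, Gpx4 and Nqo1 in the pulmonary comparison only. With 3 libraries a group, the smallest p that an exact permutation test could give is 0.10, a limit that does not bind the edgeR p-values. At this group size and spread, moderate differences could be missed.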
